A study of Oryza sativa with 3 samples.

Results

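The auxin response and transport genes of rice were taken as all genes whose symbol or synonym in the gene table is IAA, ARF, SAUR, GH3 or PIN with a number, with or without the prefix Os. The rule found 66 genes: 28 IAA, 23 ARF, 1 SAUR, 9 GH3 and 5 PIN. Of these, 57 had a probe set listed for that gene alone, out of 17905 such genes on the array, and 40 had a signal above the floor used here, out of 14397 genes. All but 1 of the 66 carry a locus number as their symbol and were recognised by synonym. The members were chosen by name, not by their values, though with earlier results of these data known.

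The tested plants were OsEBS-transgenic rice of 2 lines in the Guichao2 background, B10201 and B10301, and the control was wild-type Guichao2. Each was 1 array of biotin-labelled total RNA from leaf tissue of 10 plants, 6 weeks old and untreated, grown with 14 h of light at 28 °C. The labels name neither the promoter that drives the transgene nor any separate planting, so p-values measure the spread between the 2 lines, which may be in part technical. No gene in the table carried the name EBS, and the level of the transgene is not analysed here.

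Auxin acts in plant cells by removing a brake. Aux/IAA proteins bind auxin response factors, the ARF proteins, on the promoters of auxin-responsive genes and hold those genes down with TOPLESS-type corepressors. When auxin joins an Aux/IAA protein to a TIR1 or AFB receptor, the Aux/IAA protein is degraded and the ARF is freed. SAUR and many IAA and GH3 genes are themselves early auxin-responsive genes, GH3 enzymes join hormones to amino acids, and PIN proteins carry auxin out of cells or into the endoplasmic reticulum. In grasses these genes are known for roles in leaf angle, tillering and root growth.

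Values are log2 MAS5 signals, where MAS5 is Affymetrix's method of turning the probes of a probe set into 1 signal. A signal at or below 5.50, the log2 median over all probe sets and arrays, was treated as not measurable and raised to that floor. The arrays had nearly equal trimmed means of linear signal (497 in B10201, 497 in B10301 and 498 in the control). Their median log2 signals were 5.56 in B10201, 5.54 in B10301 and 5.41 in the control, and 50.8% of all probe sets lay above the floor in B10201, 50.5% in B10301 and 48.7% in the control. The number of arrays, with a single control, limited the precision of every value. In bulk leaf RNA, fewer cells of a type and less RNA per cell cannot be told apart.

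Of the leaf marker genes, 8 of 8 with a probe set lay above the floor, and their summed linear signal was 210372 in B10201, 269966 in B10301 and 205750 in the control. Both lines lay above the control for 4 of these 8 (GLO1, PSAH, rca and OsrbcS), below it for 1 (CAB2R, a light-harvesting protein, at 14.10 in B10201 and 15.33 in B10301, against 15.57 in the control) and on either side for 3. Root markers above the floor were 3 of 4, with the silicon transporter Lsi2 below it. Their summed linear signals were 1458 in B10201, 1432 in B10301 and 1259 in the control. Lsi1 was at 10.18 in B10201 and 10.15 in B10301, against 9.74 in the control. NRT2.2 also had both lines above the control (log2 ratios 0.60 and 0.57), and IRT1 had both below it (-0.68 and -0.65). Flower markers were 4 of 10 (summed linear signals 2224, 2389 and 3083 in B10201, B10301 and the control). The name MADS2 matched 2 of these 4 genes, so 1 of them may be another gene of the same name. In B10201, B10301 and the control, 1 was at 7.37, 8.15 and 8.10 and the other at 9.73, 9.81 and 10.50. Seed storage genes were 2 of 7 (5991, 7421 and 6416) and meristem genes 2 of 5 (5359, 4976 and 4396). The meristem gene OSH1 lay below the floor, and LOG (12.09, 11.97 and 11.79) and FON1 (9.96, 9.92 and 9.73) lay above it. The part of these tissues in the values below was not tested.

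In the B10301 column, 2 runs of 6717 and 988 consecutive probe sets held values displaced by 1 place, and those values were moved back. The move touched 12 of the 40 measured members: IAA1, IAA5, IAA7, IAA13, IAA18, IAA19, IAA21, IAA24, IAA31, ARF2, ARF10 and ARF12. Over these 12, the median size of the difference between B10301 and B10201 was 0.35 on the log2 scale after the move and 1.81 as deposited. For IAA13 the deposited value would have placed B10301 at 5.65 where B10201 was at 12.15 and the control at 11.54. None of the 12 lay within 20 probe sets of the end of a run.

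**Figure D1:**
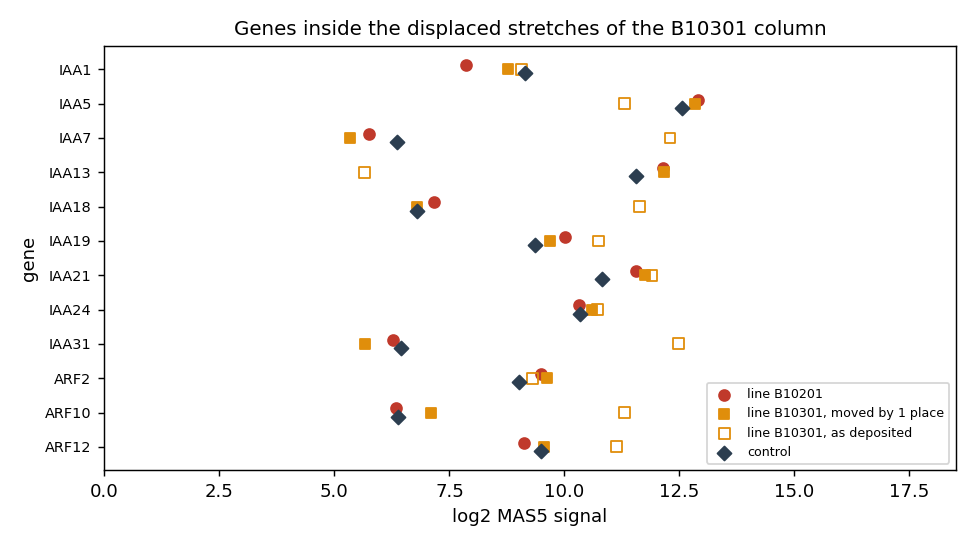
Log2 MAS5 signal of the 12 measured members inside the displaced runs, with 1 row per gene and 1 point per array; open squares show B10301 as deposited and filled squares after moving by 1 place. The filled squares lie closer to the other arrays than most open ones, as for IAA13 at 12.16 against 5.65.

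Between the transgenic lines and the control, most measured members differed by less than 2-fold. SAUR39 had signals 4.68-fold lower in B10201 and 2.68-fold lower in B10301 than in the control, and was the only measured member at least 2-fold lower in both lines. That is 1 of 40, a share near the 2.61% of all genes measured that were at least 2-fold below the control in both lines. In B10301 alone, IAA8 lay further below the control (log2 ratio -2.42) than SAUR39 (-1.42). No member was at least 2-fold higher in both lines, where 2% of all genes were. ARF15, at 1.77-fold in B10201 and 2.18-fold in B10301, came nearest. limma with Benjamini-Hochberg adjustment over all probe sets called 0 members and 0 of 26475 probe sets (0%). At an unadjusted limma p under 0.05 there were 6 of the 40 members, against 20.2% of all genes. Both lines are set against the same control array, so their ratios are not independent. With no call to rest on, higher and lower below refer to the measured signals alone.

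The families compared as follows. The median log2 ratio of the 19 measured IAA genes was 0.14 in B10201 and 0.07 in B10301, and that of the 16 ARF genes was -0.03 and 0.13, against -0.02 and -0.01 over all genes. For the 3 GH3 genes it was 0.18 and 0.44. SAUR and PIN had 1 measured gene each, at -2.23 and -1.42 for SAUR39 and 0.01 and 0.04 for PIN6. The medians of IAA, ARF and PIN turned negative when each array was centred on its median (mean of the lines -0.04, -0.04 and -0.12), a step that moved the median of all genes to -0.16. Relative to the median of all genes, IAA stood at 0.13 and ARF at 0.13, and after quantile normalization at 0.07 and 0.16.

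By size, both lines lay above the control for 18 of 40 members, where 37.8% of all genes did, and below it for 11, where 41.6% did. With centred arrays 12 members lay above and 16 below, against 26.3% and 54.9% of all genes. Among IAA genes 8 lay above and 6 below, and among ARF genes 7 above and 4 below. The mean difference from the control was larger than the difference between the lines for 21 of the 40, where the same held for 63.4% of all genes. It was so for 9 of 19 IAA genes and 10 of 16 ARF genes.

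**Figure D2:**
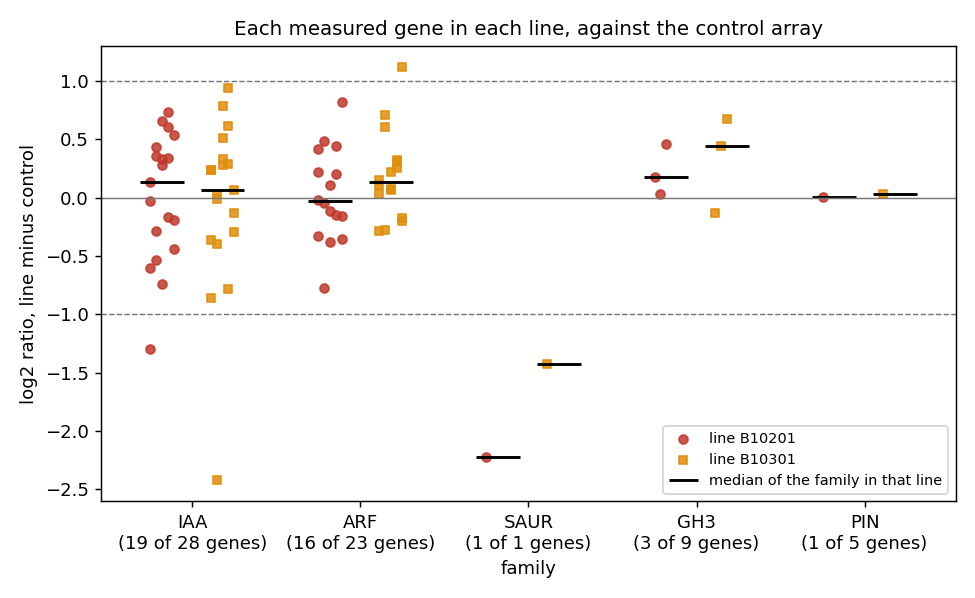
Log2 ratio of each measured member in each line against the control array, by family; circles are B10201, squares are B10301, black bars are the medians, and dashed lines mark 2-fold. Most IAA, ARF, GH3 and PIN values lie within 2-fold, and SAUR39 lies at -2.23 and -1.42.

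SAUR39 belongs to the small auxin-up RNA family, and rice SAUR39 is known as a negative regulator of auxin synthesis and transport. Its log2 signal was 8.76 in B10201 and 9.57 in B10301, against 10.99 in the control. In linear signal these are 435, 759 and 2033. Both lines lay below the control, B10201 further than B10301. The mean log2 ratio was -1.82 ± 0.57 (SD, n = 2 lines; limma adjusted p = 0.230). Of 14397 genes, 148 were at least as far below the control in both lines as SAUR39 was in B10301. Its probe set lies outside the displaced runs, and its mean ratio ranged from -1.97 to -1.79 over the scalings tried. No other SAUR gene carries a matching name in the gene table, so the value is that of 1 gene and not of the family.

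Among the 8 Aux/IAA repressor genes with both lines above the control, IAA21, IAA13 and IAA19 had the largest mean ratios. IAA21 had log2 signals of 11.55 in B10201 and 11.76 in B10301, against 10.82 in the control (mean ratio 0.84 ± 0.14 on the log2 scale; SD, n = 2 lines; limma adjusted p = 0.207). IAA13, whose stabilised form is known to block lateral root initiation in rice, was at 12.15 in B10201 and 12.16 in B10301, against 11.54 in the control. Its log2 ratios of 0.61 and 0.62 gave a mean of 0.61 ± 0.01 (SD, n = 2 lines; limma adjusted p = 0.207). The lines were nearly equal for IAA13 and both were above the control. IAA19 was at 10.01 in B10201 and 9.69 in B10301, against 9.36 in the control, so that both lines were above it by log2 ratios of 0.66 and 0.33. IAA21, IAA13 and IAA19 all lie in the displaced runs. As deposited, the log2 ratio of B10301 would be -5.90 for IAA13 and 1.08 for IAA21.

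Among the 6 with both lines below the control, IAA8, IAA1 and IAA7 had the lowest mean ratios. IAA8 was at 7.47 in B10201 and 5.58 in B10301, next to the floor, against 8.01 in the control. Both lines lay below the control, by log2 ratios of -0.53 and -2.42, and the lines were further apart than B10201 and the control. A second probe set of IAA8 lay below the floor on every array (4.25 in B10201, 2.73 in B10301 and 0 in the control). Averaged over both probe sets, IAA8 itself fell below the floor. IAA1, of which both lines lay below the control, was at 7.85 in B10201 and 8.78 in B10301, against 9.15 in the control. Its difference of -1.30 in B10201 was larger than that of -0.36 in B10301. IAA7 was at 5.76 in B10201 and 5.33, below the floor, in B10301, against 6.36 in the control. Its ratio of -0.86 in B10301 is therefore a bound, and that of -0.60 in B10201 was measured. With values as deposited the mean ratio of IAA7 was 2.67.

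IAA3 and IAA5, singled out after their values were seen, had high signals and small, like differences in both lines. IAA3 was at 13.87 in B10201 and 13.82 in B10301, against 13.53 in the control, and IAA5 was at 12.90 and 12.85, against 12.56 in the control. A second probe set of IAA3, with the control below the floor, gave a mean log2 ratio of 1.13, so the size of the IAA3 difference depends on the probe set while its direction does not. IAA2 was the IAA gene with the smallest mean ratio (0.02 ± 0.58; SD, n = 2 lines): it was at 10.80 in B10201 and 9.97 in B10301, on either side of 10.37 in the control. Mean ratios of IAA6, IAA10, IAA15, IAA17, IAA18, IAA23, IAA24 and IAA25 lay between -0.28 (IAA15) and 0.40 (IAA10). Probe sets of IAA23 and IAA17 have suffixes that mark possible cross-hybridisation.

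**Figure D3:**
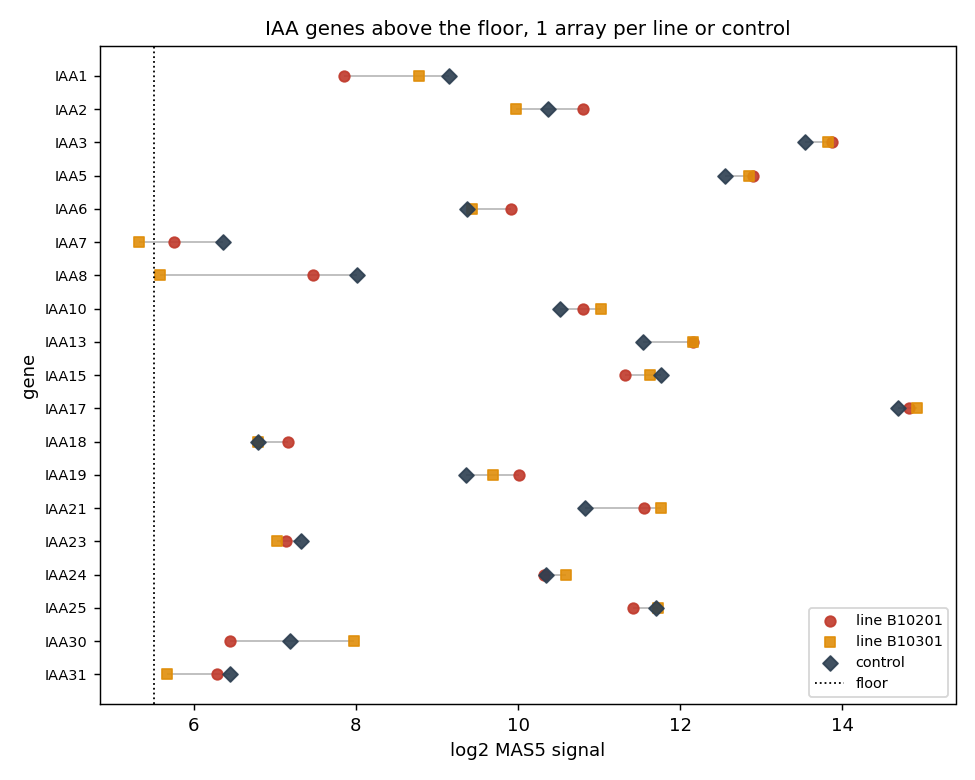
Log2 MAS5 signal of the 19 measured IAA genes, with 1 row per gene and 1 point per array (circle B10201, square B10301, diamond control); the dotted line is the floor. The control lies left of both lines for IAA21 and IAA13 and right of both for IAA1, IAA7 and IAA8.

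ARF proteins bind auxin response elements in DNA and activate or repress the genes beside them. ARF15, also listed as OsETTIN1, had log2 signals of 10.56 in B10201 and 10.86 in B10301, against 9.74 in the control. Both lines were above the control (mean ratio 0.97 ± 0.21 on the log2 scale; SD, n = 2 lines; limma adjusted p = 0.212), and its value does not come from a displaced run. ARF2, also listed as OsETTIN2, was at 9.50 in B10201 and 9.62 in B10301, against 9.01 in the control, and its second probe set gave a mean ratio of 0.65 beside 0.55. ARF14 was at 8.39 in B10201 and 8.27 in B10301, against 7.94 in the control. ARF3 was at 9.71 in B10201 and 9.89 in B10301, on either side of 9.82 in the control.

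ARF2, ARF3, ARF14 and ARF15 are the rice ARF genes known as targets of trans-acting small RNAs from TAS3 transcripts. Of these 4, both lines lay above the control in 3, where 37.8% of all genes did. The median log2 ratio of the 4 was 0.47 in each line, against -0.02 and -0.01 over all genes. ARF15, ARF2 and ARF14 have the largest mean ratios among the measured ARF genes, and the B10301 value of ARF2 is a moved one. The grouping was not among the planned comparisons and is given as a count and median without a test. The targets of miR160 measured were ARF10, ARF18 and ARF22 of 4, with medians of -0.05 in B10201 and 0.25 in B10301. ARF10 was at 6.34 in B10201 and 7.10 in B10301, against 6.38 in the control, so B10301 alone was apart. Of the 8 ARF genes matched by name here and known for a glutamine-rich middle region, typical of activators, 3 were measured: ARF12, ARF16 and ARF17. Their medians were -0.38 in B10201 and 0.07 in B10301. ARF12 and ARF17 are also targets of miR167.

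ARF17 had the lowest mean ratio of the family, at 8.85 in B10201 and 9.35 in B10301, against 9.62 in the control (mean ratio -0.52 ± 0.35 on the log2 scale; SD, n = 2 lines; limma adjusted p = 0.448). ARF12, known for a role in root growth and phosphate balance, was at 9.11 in B10201 and 9.56 in B10301, against 9.49 in the control. With centred arrays both lines lay below the control for ARF12 and ARF3. ARF24 was at 11.43 in B10201 and 11.48 in B10301, against 11.76 in the control, and ARF7 at 9.33 and 9.48, against 9.68 in the control. For ARF24 and ARF7 the lines were close together and both below the control, by mean log2 ratios of -0.31 and -0.27 (-0.45 and -0.42 with centred arrays). ARF1, ARF4, ARF9, ARF16, ARF18, ARF22 and ARF23 had mean ratios between -0.16 (ARF23) and 0.26 (ARF4).

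**Figure D4:**
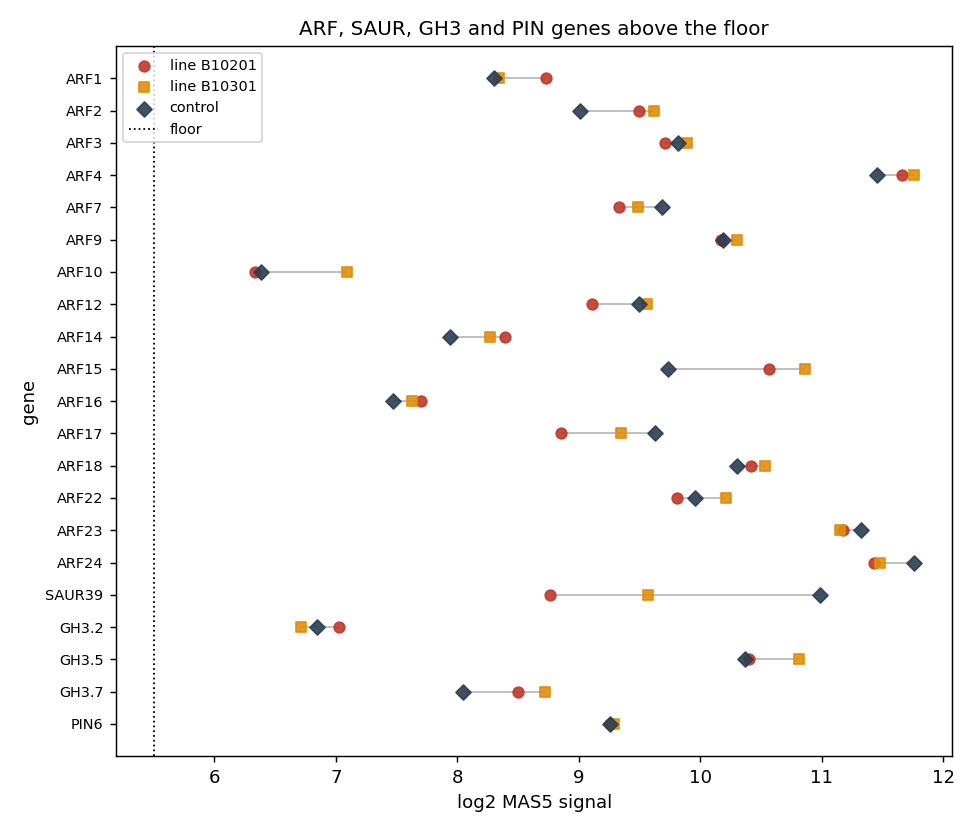
Log2 MAS5 signal of the measured ARF, SAUR, GH3 and PIN genes, with 1 row per gene and 1 point per array (circle B10201, square B10301, diamond control); the dotted line is the floor. SAUR39 has its control point right of both lines (10.99), ARF15 has it left of both (9.74), and the PIN6 points lie on each other.

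Of the GH3 enzymes, 3 of 9 were measured. GH3.7 was at 8.50 in B10201 and 8.72 in B10301, against 8.04 in the control, with both lines above (mean log2 ratio 0.57 ± 0.15; SD, n = 2 lines; limma adjusted p = 0.371). Averaged with its other probe sets, which are below the floor, the GH3.7 ratio was 0.18. GH3.5, also listed as OsJAR1 and known for joining jasmonate to isoleucine, was at 10.40 in B10201 and 10.81 in B10301, against 10.37 in the control. The GH3.5 ratios of 0.03 and 0.44 were smaller than or close to the difference between the lines (-0.41, B10201 minus B10301). GH3.2, which conjugates auxin and is known from rice disease resistance, was at 7.02 in B10201 and 6.71 in B10301, on either side of 6.84 in the control. GH3.8, an auxin-conjugating enzyme, lay below the floor on every array, at 5.46 in B10201, 5.31 in B10301 and 0.84 in the control, so no ratio is given.

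Of the PIN carriers only PIN6, also listed as PIN5A, was measured. It was at 9.26 in B10201 and 9.29 in B10301, against 9.25 in the control. The mean log2 ratio of 0.02 ± 0.02 (SD, n = 2 lines; limma adjusted p = 0.960) leaves the arrays level for this gene. PIN2, known for root gravitropism, PIN4 and PIN9 were below the floor on every array, with signals of 4.34, 3.44 and 2.04 in B10201, 3.57, 3.81 and 1.89 in B10301, and 5.21, 1.52 and 4.22 in the control.

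The other members with signals under the floor were IAA4, IAA9, IAA12, IAA14, IAA16, IAA20, IAA26, ARF13, GH3.1, GH3.4, GH3.6, GH3.9 and GH3.11. On 1 array each, IAA9 (5.74 in the control) and GH3.9 (5.98 in B10301, a moved value) lay above the floor, though not on average. Members with no probe set listed for them alone included IAA11, IAA29, ARF5, ARF6, ARF8, ARF19, ARF21 and ARF25. In all, 17 members were under the floor and 9 had no such probe set. This leaves 5 of the 8 matched glutamine-rich ARF genes without a value.

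Between the lines, 2 of the 40 members were at least 2-fold apart. IAA8 was 3.71-fold higher in B10201 than in B10301, where 2.8% of all genes were at least 2-fold higher, and IAA30 was 2.88-fold higher in B10301 than in B10201, where 1.35% of all genes were. IAA30 was at 6.45 in B10201 and 7.98 in B10301, with the control between them at 7.19. Its log2 ratios of -0.74 and 0.79 cancel in the mean (0.03 ± 1.08; SD, n = 2 lines). IAA31, singled out because it is the next gene to IAA30 on chromosome 12, was at 6.28 in B10201 and 5.67 in B10301, against 6.45 in the control, so that the neighbours were ordered differently across the arrays. The B10301 value of IAA31 is a moved one (12.49 as deposited) and lies near the floor. A second probe set of IAA31 lay below the floor on every array. With 1 array per line, differences between lines carry no test. The median size of the difference between the lines was 0.30 for IAA genes, 0.14 for ARF genes and 0.18 over all genes.

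**Figure D5:**
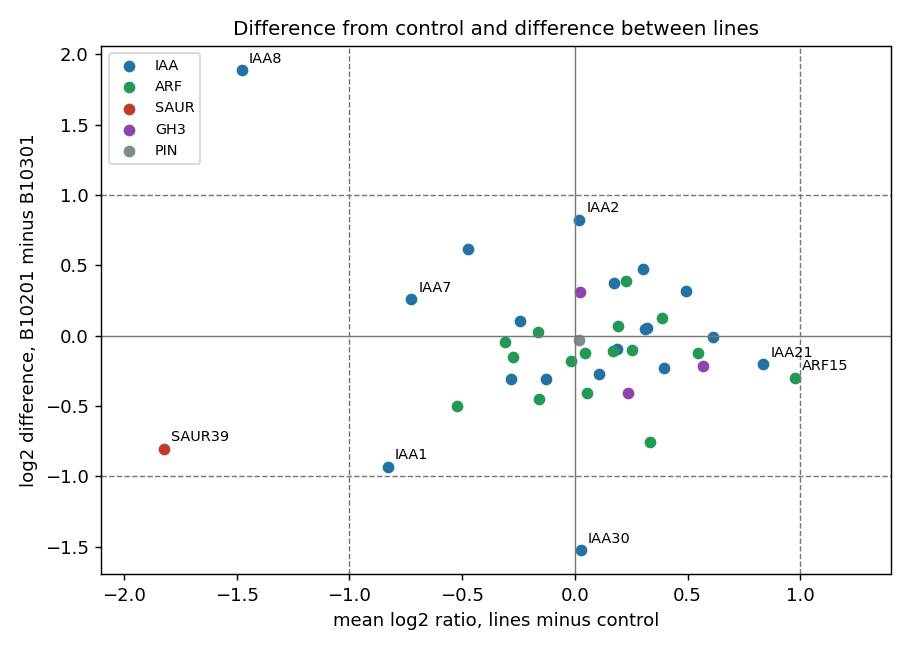
Mean log2 ratio of the lines against the control (horizontal) and log2 difference of B10201 minus B10301 (vertical) for the 40 measured members, coloured by family; dashed lines mark 2-fold. SAUR39 lies far left at -1.82, ARF15 far right at 0.97, IAA8 at the top (1.89) and IAA30 at the bottom (-1.53).

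Genes that make, move or answer to auxin outside the 5 families were looked up in 11 lists. They held 29 further genes, 19 of them measured, of which 1 was at least 2-fold higher in both lines and 0 at least 2-fold lower, and 3 (ASA2, OsTPR2 and LBD6) had an unadjusted limma p under 0.05, against 2%, 2.61% and 20.2% of all genes; limma called 0 after Benjamini-Hochberg adjustment. Their median log2 ratio was -0.08 in B10201 and 0.06 in B10301. The lists match by name, and 2 of the genes are homonyms: OsCRL4 is also listed as CHARK, a receptor-like kinase, and LAX1 as the transcription factor BHLH123. Without them 18 measured genes are left, with medians of -0.08 and 0.05, and the counts past 2-fold and under p 0.05 are the same. The lists of ABCB and PILS transporters matched 0 genes in the gene table. The list of receptors and partners matched only SKP1, which had no probe set of its own. The influx list matched only the homonym LAX1, below the floor. These lists therefore give no value for such transporters, influx carriers or receptors, and do not show them absent from leaf. The gene at least 2-fold higher was LBD6, also listed as AS2, of the lateral organ boundaries family, with a cross-hybridising type of probe set. It was at 7.32 in B10201 and 7.20 in B10301, against 5.41, below the floor, in the control, so its difference is at least 3.52-fold in B10201 and at least 3.25-fold in B10301.

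In auxin synthesis, ASA2, a subunit of the anthranilate synthase that feeds tryptophan synthesis, was at 11.29 in B10201 and 11.41 in B10301, against 12.15 in the control. Its mean log2 ratio was -0.80 ± 0.08 (SD, n = 2 lines), with both lines below the control. For ASA1, the other alpha subunit gene of that enzyme, both lines were above the control (log2 ratios 0.29 and 0.28), and for OASB1, a beta subunit gene, both were below it (-0.17 and -0.63). The tryptophan aminotransferase gene FIB had ratios of 0.76 and 0.38 and OsYUCCA1, the next step, 0.22 and 0.37, each with both lines above the control. For OsYUCCA1 the control was below the floor, so these are bounds. The corepressors OsTPR2 (-0.40 in B10201 and -0.31 in B10301) and TPR3 (-0.28 and -0.05) had both lines below the control. Probe sets of ASA2, OsYUCCA1 and OsTPR2 have suffixes that mark possible cross-hybridisation, so their values may not be those of 1 gene. OsPID, a kinase that acts on PIN proteins, was at 5.41, below the floor, in B10201 and 5.63 in B10301, against 6.45 in the control. Of 7 measured genes that release auxin conjugates or break down auxin, both lines lay above the control for 3 (ILL6, ILL8 and DAO), below it for 2 (ILL5 and ILL7) and on either side for 2, with a median mean ratio of 0.09. The amidohydrolase gene ILL6 was at 6.15 in B10201 and 6.82 in B10301, against 5.34, below the floor, in the control, and ILL8 at 11.21 and 10.73, against 10.22 in the control.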

How the data were processed

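Leaf RNA of 2 transgenic lines and 1 control was measured on Affymetrix rice arrays, 1 array each. The deposited values are log2 signals; MAS5 is the method the submitters' processing notes name for them, and its version, detection calls and scaling target are not given in the sources used here. The B10301 values of 2 runs of probe sets were taken from 1 row above. Against the average of B10201 and the control, B10301 had r = 0.939 after the move (0.397 before) over the longer run and 0.823 (0.051 before) over the shorter.

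Of 57194 probe sets, 26475 (46.3%) had a mean above the floor, the median of all signals (45.4 in linear signal); lower values were then raised to it. Names came from the platform annotation (22436 probe sets with 1 gene, 95 with several, 34663 not listed) matched by gene identifier to the table of assembly ASM3414082v1. A gene was represented by its probe set with the highest mean. Log2 ratios are line minus control. The fit across all probe sets used limma 3.58.1 (R 4.3.3) with a trend on intensity. That fit was also run on simulated data, whose equal noise on every array cannot test the spread of a lone control. Its 1 residual degree of freedom comes from the lines, and the lone control is taken to have their spread; p-values are two-sided with a Benjamini-Hochberg threshold of 0.05 over all probe sets. Tables and plots used Python 3.11.15, numpy 2.4.6, pandas 2.3.3, scipy 1.17.1 and matplotlib 3.10.9.

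Where synonyms gave several numbers, the one in chromosome order was used for IAA and ARF genes, and for PIN genes 1 matched synonym. The members, lists and tests were chosen with earlier results of these data known. Genes named with values were, per family, any that differed from the control by 2-fold or more in each line, the 6 with the largest mean ratio with both lines on one side, the 3 that differed most between lines and the 1 with the smallest ratio; others were named after their values were seen, and so were genes of the 11 lists. Alternatives were array centring, quantile normalization, other floors, values as deposited or without the displaced runs, other choices of probe sets and of moderation, and each line alone. No sequences were used. One member is counted but not reported by name here.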

Additional observations from a re-analysis of the deposited data

How the results depend on the processing

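limma called 0 members under every alternative run, and 5 to 7 members had an unadjusted p under 0.05 except with values as deposited (1) and without the displaced runs (2). The probe sets under that limma p numbered 4520 in the main fit, 2091 as deposited and 3837 without the displaced runs. Leaving out the runs also left 28 measured members. IAA5, IAA13, IAA21 and ARF2, each under that p in the main fit, lie in the runs. Over all probe sets limma called 128 with no floor or filter, 85 with the filter but values not raised to the floor (chosen after seeing the data), 52 with robust moderation, 4 on 1 probe set per gene and 1 on the mean of a gene's probe sets, against 0 otherwise. Members at least 2-fold higher in both lines numbered 1 with the floor at the 25th percentile, 7 with no floor and 0 to 1 on either line alone. Members at least 2-fold lower numbered 2, 3 and 2. Members at least 2-fold apart between the lines were 7 with the lower floor, 10 with no floor and 10 as deposited. The lower floor and no floor admitted 50 and 57 members, so their counts include genes treated as not measurable above. The shares of all genes past 2-fold under these settings are not given here, so the counts are no result about auxin genes. The IAA median was -0.037 with centred arrays, 0.026 with the lower floor, 0.17 as deposited, 0.023 without the displaced runs, 0.18 with the mean of a gene's probe sets and 0.07 to 0.14 on either line alone. The ARF median was -0.035 with centred arrays and -0.032 to 0.13 on either line alone, and that of GH3 0.18 to 0.44. The PIN median was -0.12 with centred arrays, 0.076 after quantile normalization and -0.62 with the lower floor or none. Those last 2 settings admitted PIN genes under the main floor, while PIN6 itself stayed at 0.02. Of 22 named genes, ARF3, ARF10, ARF12, GH3.2, IAA2, IAA7, IAA13, IAA30 and PIN6 changed sign in 1 or 2 settings each. IAA7 and IAA13 did so only with values as deposited, PIN6 only with centred arrays and ARF10 only on B10201 alone. The cause was not tested. limma and the line difference could not be refitted with 1 line. No paired analysis was possible because there is 1 control and the labels carry no replicate numbers. Low signal limits 17 members, and 1 control array limits every ratio.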
